A study of Homo sapiens with 10 samples.

Results

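TXNIP, ARRDC4 and ARRDC3 encode alpha-arrestins, and MLXIP, MLXIPL and MLX encode the transcription factors that switch on TXNIP and ARRDC4 when glucose enters a cell. These 6 genes, of 20379 in the deposited table, were picked by symbol, and the set was selected on its known FPKM levels in these same libraries. Their levels and changes are therefore a description and carry no test. The cells were 2 established lines from human glioblastoma, DBTRG-05MG and U87, cultured with 1 mM dibutyryl cAMP, a cell-permeable cyclic AMP analogue that activates protein kinase A. Libraries of poly(A)-selected RNA were made at 6, 12, 24 and 48 h in each line, with a 0 h library as the baseline, so there are 10 libraries, 1 for each line and time. No library came from untreated cells kept for the same later times, so treatment and time in culture cannot be told apart. The sample labels and the series text give different dose units and lengths of treatment, and the sample labels were followed.

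Alpha-arrestins are cytoplasmic adaptors that bring NEDD4-family ubiquitin ligases to membrane proteins, which are then taken into the cell. TXNIP removes the glucose transporters GLUT1 and GLUT4 from the surface and also binds and inhibits thioredoxin. MondoA (MLXIP) and ChREBP (MLXIPL) sense glucose 6-phosphate, pair with MLX and bind carbohydrate response elements, and TXNIP is among the genes they activate most. TXNIP thereby acts as a brake: high sugar phosphate raises it, and it lowers further uptake. In gliomas, which use much glucose, TXNIP is often described as a growth-restraining gene.

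Members were covered by whole reads that could be recovered from the table, since each value was a multiple of 1 read to within 9e-07 of a read. Taking DBTRG-05MG at 0 h as 100%, no library was deeper than 116.8% or shallower than 100%. Both lines lacked defining markers of mature astrocytes: GFAP lay between 0.07 and 0.51 FPKM (fragments normalised to transcript length and library size), while VIM, an intermediate filament gene of glioma lines, was at 866 FPKM or more in every library. SOX2, another glial and glioma marker, was at 23.0 to 36.6 FPKM in DBTRG-05MG and at 0.0 FPKM in U87. Leukocyte and endothelial markers were at most at 0.37 FPKM. Of the epithelial markers, KRT18 was at 274 to 387 FPKM in DBTRG-05MG and at most 0.89 FPKM in U87. EPCAM and CDH1 were at most at 0.63 FPKM. Of the neuronal markers, SNAP25 was at 4.0 to 11.8 FPKM, SYT1 at 1.23 to 4.49 FPKM and RBFOX3 at most at 0.19 FPKM. Genes known to respond to cyclic AMP were higher at 6 h in both lines. Of these, 5 of 5 were at least 2-fold above 0 h in DBTRG-05MG and 4 of 5 in U87. Of all 12352 genes with a mean of 1 FPKM or more, 1.17% and 2.73% were so in these libraries. Of 5 genes of cell division, 0, 0, 1 and 5 were at least 2-fold below 0 h at 6, 12, 24 and 48 h in DBTRG-05MG. In U87 they numbered 0, 4, 2 and 2. Among all genes with that mean, the share at least 2-fold lower was 0.81%, 1.61%, 1.6% and 5.16% in DBTRG-05MG. In U87 this share was 2.43%, 2.67%, 4.5% and 4.32%. Both groups were chosen with earlier results of these data known, so nothing is read from these counts. The part of either group in the values of the 6 genes was not tested.

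TXNIP lies at chr1:145992435-145996600 on the minus strand (GRCh38, GENCODE release 29), ARRDC4 at chr15:97960698-97973838 on the plus strand, and ARRDC3 at chr5:91368724-91383359 on the minus strand. The 250 bases before 1 RefSeq start of each gene (GRCh38.p14) are shown because TXNIP and ARRDC4 were both high at 48 h in U87 and ARRDC3 was not. Sequences for 6 of 6 members were found in the RefSeq table. Capitals mark CACGNG, the core of a carbohydrate response element, on either strand; the letters were chosen with the known element of TXNIP in view. The windows are chr1:145996580-145996829 (minus strand), chr15:97960453-97960702 (plus strand) and chr5:91383318-91383567 (minus strand).
TXNIP: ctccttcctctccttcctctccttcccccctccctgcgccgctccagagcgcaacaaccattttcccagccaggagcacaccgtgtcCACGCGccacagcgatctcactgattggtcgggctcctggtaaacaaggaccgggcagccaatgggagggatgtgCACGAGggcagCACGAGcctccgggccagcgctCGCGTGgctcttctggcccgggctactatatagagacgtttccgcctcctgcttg
ARRDC4: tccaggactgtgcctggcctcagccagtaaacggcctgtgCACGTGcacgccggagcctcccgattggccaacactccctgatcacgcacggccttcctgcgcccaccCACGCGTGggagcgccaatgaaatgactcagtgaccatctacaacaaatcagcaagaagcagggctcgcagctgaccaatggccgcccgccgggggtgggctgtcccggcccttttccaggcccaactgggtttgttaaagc
ARRDC3: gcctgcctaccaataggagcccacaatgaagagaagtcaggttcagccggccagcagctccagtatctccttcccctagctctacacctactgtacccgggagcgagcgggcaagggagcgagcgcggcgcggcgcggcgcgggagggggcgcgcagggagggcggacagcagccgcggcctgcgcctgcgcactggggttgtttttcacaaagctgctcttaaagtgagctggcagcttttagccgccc

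Counting back from -1 at the base before the start, the TXNIP window held 4 such sites, of which those at -88 to -83 and -77 to -72 stood 5 bases apart on the same strand. Such a pair, in either orientation, was found in 23 of 35116 RefSeq windows of the same length (0.0655%), and a single site in 26.7%. The 2 CCAAT boxes of this window (CCAAT or ATTGG, in 32.0% of windows), the motif of NF-Y, lay beside them at -140 to -136 and -105 to -101. ARRDC4 held a CACGTG E box at -210 to -205, which is also a CACGNG site and was found in 6.34% of windows, overlapping CACGNG sites at -142 to -137 and -140 to -135, and 3 CCAAT boxes, but no pair. The ARRDC3 window shown held no CACGNG site and 1 CCAAT box. A window at its other RefSeq start held 1 CACGNG site, and the window at the other TXNIP start held none. Which start these cells used was not tested. The cyclic AMP response element TGACGTCA (1.65% of windows) was absent from these windows of the arrestins and present in that of MLXIP at -57 to -50. MLX had CACGTG at -50 to -45, and the MLXIPL window had none of these motifs. A match describes letters only.

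TXNIP was the most abundant of the 6 genes in 9 of 10 libraries and had the widest swing, nearly all of it in U87. Its level in DBTRG-05MG was 112 FPKM at 0 h, 59.7 at 6 h, 70.9 at 12 h, 96.4 at 24 h and 148 at 48 h. In U87 it was 225 FPKM at 0 h, 28.3 at 6 h, 42.6 at 12 h, 50.7 at 24 h and 1148 at 48 h. Both lines were thus lowest at 6 h and highest at 48 h, with a highest-to-lowest ratio of 2.48 in DBTRG-05MG and 40.5 in U87. The 6 h library of U87 held 860 TXNIP reads (95% Poisson interval 803 to 919) and its 48 h library 34445 (34082 to 34811). These intervals cover counting error only, and reads without molecular tags are not independent molecules. In bulk RNA, fewer cells that express a gene and less RNA per cell cannot be told apart.

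Changes are given on the log2(FPKM + 1) scale against the 0 h library of the same line. In DBTRG-05MG TXNIP differed from 0 h by -0.89 at 6 h, -0.65 at 12 h, -0.21 at 24 h and 0.40 at 48 h. Of the 12352 tested genes (mean over all libraries of 1 FPKM or more), 151 had a lower change at 6 h and 2657 a higher one at 48 h. U87 followed a similar order at a larger size. There TXNIP differed from 0 h by -2.94 at 6 h, and 0 tested genes had a lower value. At 12 h its change was -2.37, with 6 genes lower, and at 24 h -2.13, with 26 lower. By 48 h the change was 2.35, a level 5.11 times that of 0 h, and 13 genes had a higher change. The step between 24 and 48 h alone was 4.47 log2 units, a ratio of 22.6, and 1 gene had a larger one. The difference between the lines (DBTRG-05MG minus U87) accordingly changed sign along the course: -1.0 at 0 h, 1.05 at 6 h, 0.72 at 12 h, 0.91 at 24 h and -2.95 at 48 h. With 1 library behind each value, no spread between cultures is known. The median gene's residual SD in the fit across both lines, 0.271 log2, served as a rough yardstick. Libraries of both lines were ordered together by TXNIP level, so gaps between neighbours are not changes within a line. Of these 9 gaps, 5 exceeded the yardstick, and those around U87 at 48 h (2.35) and U87 at 0 h (0.60) were the widest.

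**Figure D1:**
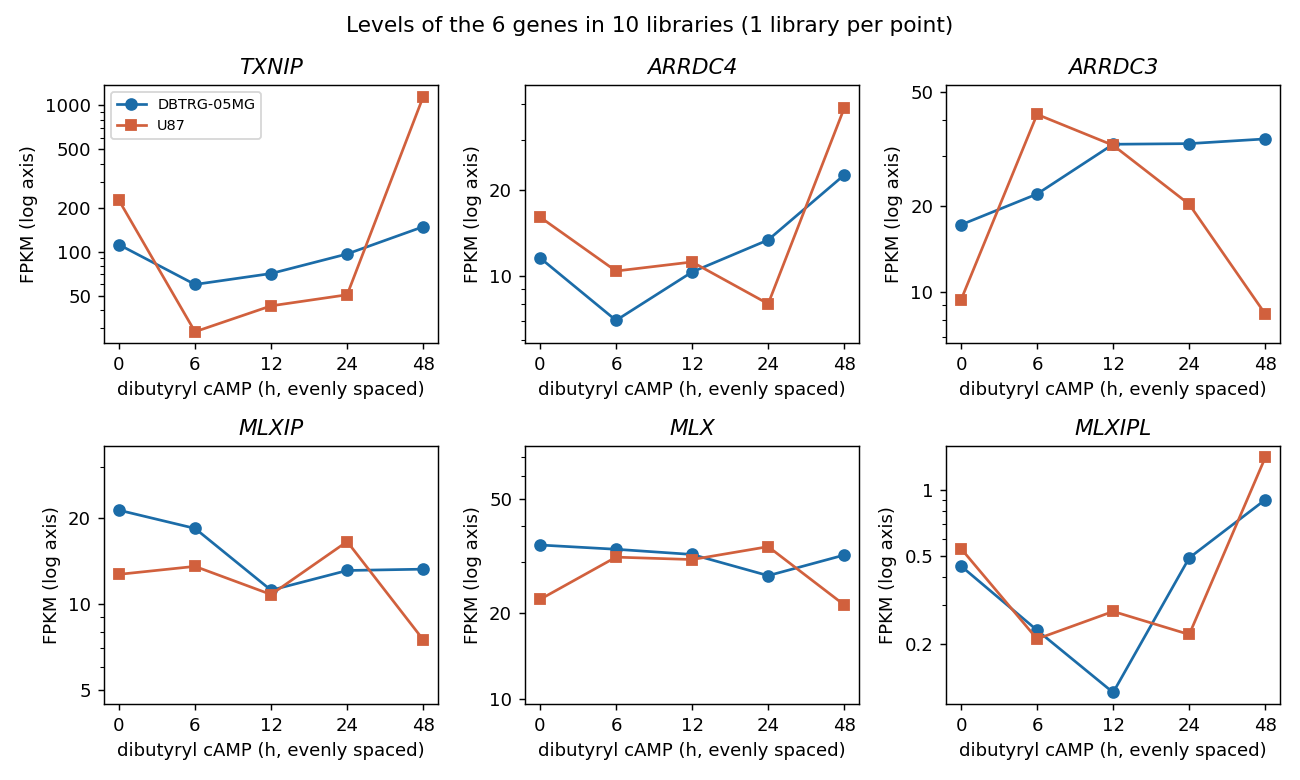
FPKM (log axis) of each gene against hours of dibutyryl cAMP (evenly spaced), 1 library per point, for DBTRG-05MG (circles) and U87 (squares); each vertical axis has its own range. TXNIP reaches 1148 FPKM in U87 at 48 h, after 28.3 FPKM at 6 h, and ARRDC4 also has its highest point there at 38.7 FPKM.

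ARRDC4, the closest relative of TXNIP in the family and like it a glucose-response gene, had the same low-then-high order. In DBTRG-05MG it was at 11.6 FPKM at 0 h, 7.02 at 6 h, 10.4 at 12 h, 13.4 at 24 h and 22.6 at 48 h. In U87 it was at 16.1 FPKM at 0 h, 10.4 at 6 h, 11.2 at 12 h, 8.02 at 24 h and 38.7 at 48 h. The 48 h library was the highest of each line, and the lowest was that of 6 h in DBTRG-05MG but that of 24 h in U87. At 48 h the change was 0.90 in DBTRG-05MG, where 718 genes were higher, and 1.21 in U87, where 169 were. The step between 24 and 48 h in U87 was 2.14 log2 units, a ratio of 4.83, with 47 genes higher. Reads behind ARRDC4 numbered 260 to 1615 per library. The ratio of TXNIP to ARRDC4, both per length, stayed between 6.55 and 9.62 in DBTRG-05MG. In U87 it was 2.72 at 6 h and 29.6 at 48 h, the ends of its range over all 10 libraries.

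ARRDC3, an adaptor for beta-adrenergic receptors and integrin beta 4 that is described as a tumour suppressor in breast cancer, had the opposite order of levels to TXNIP in U87. In DBTRG-05MG it was at 17.2 FPKM at 0 h, 22.0 at 6 h, 32.9 at 12 h, 33.0 at 24 h and 34.3 at 48 h. In U87 it was at 9.40 FPKM at 0 h, 41.8 at 6 h, 32.6 at 12 h, 20.3 at 24 h and 8.39 at 48 h. DBTRG-05MG thus held a plateau whose 12, 24 and 48 h values differed by at most 0.05 log2 between successive times, whereas U87 had its peak at 6 h and was back near its 0 h level at 48 h. The changes were 0.34 at 6 h, 0.90 at 12 h, 0.90 at 24 h and 0.96 at 48 h in DBTRG-05MG. In U87 they were 2.04, 1.69, 1.03 and -0.15 at the same times. At 6 h in U87, 57 of the tested genes had a higher change than ARRDC3. That library was also the one in which ARRDC3 exceeded TXNIP, with a ratio of TXNIP to ARRDC3 of 0.678; the ratio was 137 at 48 h in U87. Its exons overlap the antisense gene ARRDC3-AS1, and since no strand-specific kit is stated, reads of the pair cannot be told apart.

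MondoA mRNA (MLXIP, chr12:122078722-122147347, plus strand) was present throughout and was lower at 48 h in both lines. Its levels in DBTRG-05MG were 21.3 FPKM at 0 h, 18.4 at 6 h, 11.2 at 12 h, 13.1 at 24 h and 13.2 at 48 h. In U87 they were 12.7, 13.5, 10.8, 16.5 and 7.50 FPKM at the same times. The changes at 48 h were -0.65 in DBTRG-05MG, with 1355 genes lower, and -0.69 in U87, with 1463 lower. The U87 library with the most TXNIP was therefore the one with the least MLXIP, and of the 9 gaps in the order of MLXIP levels only the one above that library (0.47) exceeded 0.271.

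ChREBP mRNA (MLXIPL, chr7:73593194-73624543, minus strand), best known from liver and fat, was near the limit of detection. It was at 0.45, 0.23, 0.12, 0.49 and 0.90 FPKM at 0, 6, 12, 24 and 48 h in DBTRG-05MG and at 0.54, 0.21, 0.28, 0.22 and 1.40 FPKM in U87, below the 1 FPKM mean that the fit across genes required. These values rest on 4 to 47 reads: in U87 on 47 at 48 h (95% Poisson interval 34.5 to 62.5), against 18 at 0 h (10.7 to 28.4). The 48 h library was the highest of each line, as for TXNIP and ARRDC4. MLXIP exceeded MLXIPL by 5.36 to 90.4 times per length.

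MLX (chr17:42567068-42573239, plus strand), the shared partner of both factors, varied least of the 6. Its levels were 34.5, 33.3, 31.9, 26.9 and 31.8 FPKM at 0, 6, 12, 24 and 48 h in DBTRG-05MG and 22.2, 31.3, 30.7, 34.0 and 21.3 FPKM in U87. None of its 9 gaps exceeded 0.271 log2, and its highest-to-lowest ratio was 1.28 in DBTRG-05MG and 1.60 in U87. The gaps are between libraries of both lines ordered together, so they do not measure change within a line. From 0 h, MLX differed by -0.05, -0.11, -0.34 and -0.11 at 6, 12, 24 and 48 h in DBTRG-05MG. In U87 the changes were 0.47, 0.45, 0.59 and -0.06, and 863 tested genes had a higher one at 24 h. Exons of MLX overlap PSMC3IP on the opposite strand, with the same limit on telling reads apart.

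Counted as sizes, 0 of 6 members were at least 2-fold from 0 h at any time in DBTRG-05MG. Among all tested genes there, the share at least 2-fold higher was 1.17% at 6 h, 2.47% at 12 h, 3.18% at 24 h and 4.57% at 48 h, and the share at least 2-fold lower was 0.81%, 1.61%, 1.6% and 5.16%. In U87, ARRDC3 was the 1 member at least 2-fold higher at 6, 12 and 24 h, beside 2.73%, 2.61% and 2.15% of all tested genes, and TXNIP the 1 member at least 2-fold lower, beside 2.43%, 2.67% and 4.5%. At 48 h in U87, TXNIP and ARRDC4 were at least 2-fold higher, beside 2.14%, and 0 members were at least 2-fold lower, beside 4.32%. The members were chosen by these same changes, so nothing is read from the counts.

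**Figure D2:**
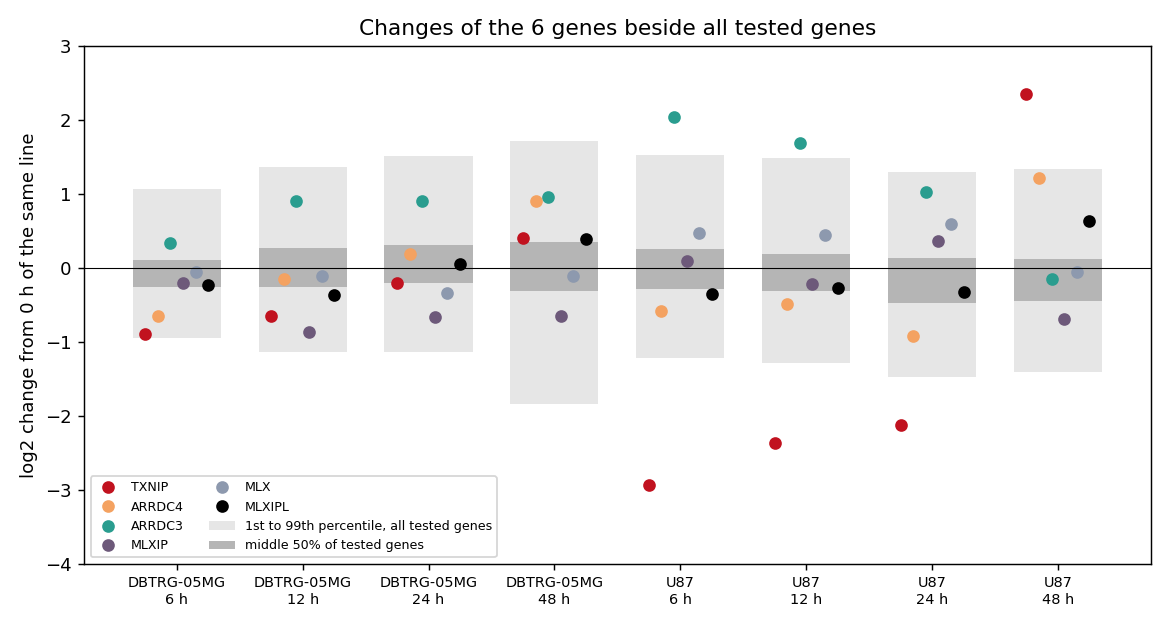
Log2 change from 0 h of the 6 genes (points) in each later library, over bars for the middle 50% (dark) and the 1st to 99th percentile (light) of all tested genes; MLXIPL was not among the tested genes. TXNIP in U87 lies below the light bar at 6, 12 and 24 h and above it at 48 h, and ARRDC3 in U87 lies above it at 6 and 12 h.

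Likeness to a member was measured as the root mean square difference of the log2 changes over the 8 later libraries, ranked over the 8405 genes whose mean reached 5 FPKM. The 5 genes nearest to TXNIP still differed from it by over 1 log2 unit: MIR612 (1.02), SLC9A3 (1.09), GUCY1B3 (1.10), NEAT1 (1.11) and LOC100506714 (1.14). MIR612 lies within the NEAT1 locus, so the reads of that pair are uncertain. In likeness to TXNIP over the other 12351 tested genes, ARRDC4 held rank 32, with a difference of 1.25, and ARRDC3 rank 12284, near the bottom, with 2.81. MLXIP held rank 9663 (1.97) and MLX rank 10896 (2.06). The members were chosen with these values known, so their ranks are a description only. Close matches existed for ARRDC4, namely TNFSF9 (0.22), YPEL5 (0.27), SLC17A5 (0.28), SLC2A3 (0.34) and LOC93622 (0.34). For ARRDC3 they were DNAJB9 (0.37), GPRC5A (0.41), ZNF503 (0.41), TBL1X (0.41) and SERTAD1 (0.42). SLC2A3, the glucose transporter GLUT3, thus appears both among the nearest genes of ARRDC4 and in the list of glucose uptake genes.

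Around the 6 genes, 9 lists of pathway genes held 100 names, of which 99 were in the table and 80 were tested. The limma test across both lines, with Benjamini-Hochberg adjustment, called 0 of the 80 at any time, beside 0.0081% of all genes at 6 h, 0.0081% at 12 h, 0.0081% at 24 h and 0.0% at 48 h. The single gene behind the first 3 shares was IL11, a cytokine gene. At an unadjusted p under 0.05 in the time test, 4, 4, 1 and 9 of the 80 pathway genes passed at 6, 12, 24 and 48 h. Of all 12352 tested genes, 656, 552, 433 and 1512 did. A limma test of different trends in the lines called 0 of the 80, beside 0.0162% of all genes, which were SLC18A1 and TGM3. At an unadjusted p under 0.05 in this trend test, 14 of the 80 passed, beside 1661 of the 12352 genes. The lists were chosen with earlier results of these data known, so nothing is read from the unadjusted counts. The smallest adjusted p of a pathway gene was 0.152 at any time and 0.193 for the trend. The values that follow are sizes that did not pass these tests.

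Glucose uptake and phosphorylation held the genes nearest to the role of TXNIP. SLC2A1, which encodes the TXNIP cargo GLUT1, was in DBTRG-05MG at 133 FPKM at 0 h, 129 at 6 h, 99.3 at 12 h, 88.3 at 24 h and 56.7 at 48 h. In U87 it was at 12.4, 53.5, 69.2, 31.6 and 8.16 FPKM at these times. SLC2A1 was thus lower at each later time in DBTRG-05MG, while in U87 it was high at the times when TXNIP was low and low at 0 and 48 h, when TXNIP was high. SLC2A3, which encodes GLUT3, was at 46.3 FPKM at 48 h, against 20.4 FPKM at 0 h, in DBTRG-05MG, and at 28.6 FPKM at 48 h, against 12.2 FPKM at 0 h, in U87. SLC2A6, a lysosomal transporter, differed from 0 h by -0.38 in DBTRG-05MG and -0.18 in U87 at 48 h. Among all tested genes, 4.57% were at least 2-fold higher and 5.16% lower at 48 h in DBTRG-05MG, and 2.14% and 4.32% in U87. Of the 14 genes of this list tested, 2 were at least 2-fold higher and 1 lower at 48 h in DBTRG-05MG. In U87 2 were higher and 0 lower. HKDC1, one of the higher genes in DBTRG-05MG (1.78), was named after its values were seen. The list median at 48 h was -0.06 in DBTRG-05MG, where that of all tested genes was 0.02, and 0.23 in U87, where that of all tested genes was -0.15.

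The other glucose-response targets followed several courses. PFKFB3, the gene of an enzyme that speeds glycolysis, was in DBTRG-05MG at 32.5 FPKM at 0 h, 27.9 at 6 h, 24.99 at 12 h, 23.1 at 24 h and 19.3 at 48 h. In U87 its level was 9.38, 42.7, 37.5, 16.2 and 6.75 FPKM, with the peak at 6 h as for ARRDC3. At 48 h, 4.57% of all tested genes were at least 2-fold higher and 5.16% lower in DBTRG-05MG, and 2.14% and 4.32% in U87. Of 15 tested genes of this list, 2 were at least 2-fold higher and 1 lower at 48 h in DBTRG-05MG, and 0 were either in U87. The 3 in DBTRG-05MG were ME1, malic enzyme (1.12), RGS16 (1.82, named after its values were seen) and the fatty acid elongase ELOVL6 (-1.63, with -0.67 in U87). ME1 was at 0.03 FPKM or below in U87. SCD, the stearoyl-CoA desaturase, differed from 0 h by -0.61 at 6 h and 0.24 at 48 h in DBTRG-05MG. In U87 it was at 163 FPKM at 6 h and 146 FPKM at 48 h, against 83.8 FPKM at 0 h. At 6 h in U87, 2 genes of the list were at least 2-fold higher, PFKFB3 (2.08) and GPAM (1.17), beside 2.73% of all tested genes. The 1 lower was MID1IP1 (-1.01), beside 2.43%. MID1IP1 was at 89.5, 43.8, 48.8, 87.5 and 99.9 FPKM in U87 at 0, 6, 12, 24 and 48 h. GPAM and MID1IP1 were named after their values were seen. The list's medians lay between -0.19 and 0.13 in all 8 later libraries.

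**Figure D3:**
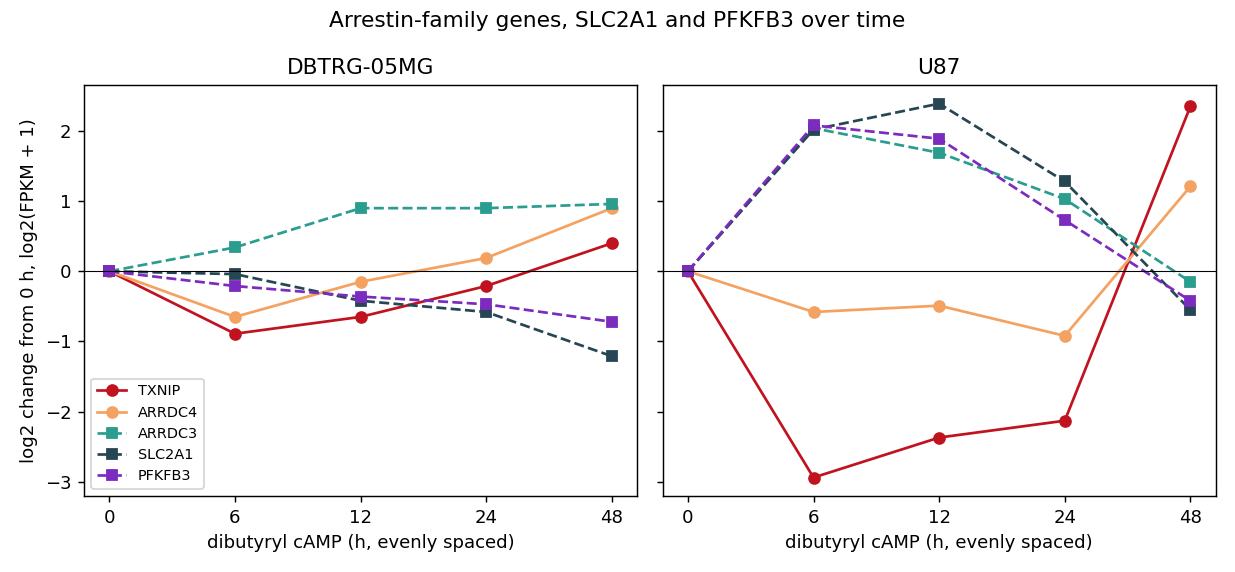
Log2 change from 0 h, on the log2(FPKM + 1) scale, against hours of dibutyryl cAMP (evenly spaced), 1 library per point. In U87 ARRDC3, SLC2A1 and PFKFB3 (dashed, squares) stand at 2.02 to 2.08 at 6 h where TXNIP stands at -2.94, and at 48 h they lie between -0.55 and -0.15 while TXNIP and ARRDC4 (solid, circles) are at 2.35 and 1.21.

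Within the thioredoxin system, the 48 h library of U87 also held the highest levels of TXN, the partner that TXNIP inhibits, and of TXNRD1, the reductase that recharges it. TXN was at 323 FPKM at 48 h, against 159 FPKM at 0 h, in DBTRG-05MG, and at 473 FPKM at 48 h, against 283 FPKM at 0 h, in U87. TXNRD1 was at 118 FPKM at 48 h, against 78.8 FPKM at 0 h, in DBTRG-05MG, and at 434 FPKM at 48 h, against 135 FPKM at 0 h, in U87. Both genes, like TXNIP, were below their 0 h level at 24 h in U87, TXN at 174 FPKM and TXNRD1 at 62.5 FPKM. The courses differed at other times. At 6 h in U87, where TXNIP was lowest, TXN was at 342 FPKM and TXNRD1 at 129 FPKM. In DBTRG-05MG both genes were above their 0 h level at 6, 12 and 24 h, when TXNIP was below its own. PRDX1, a thioredoxin-dependent peroxidase, differed from 0 h by 0.77 in DBTRG-05MG and 0.60 in U87 at 48 h. DDIT4, whose product REDD1 binds TXNIP and restrains mTORC1, had its highest level at 48 h in DBTRG-05MG (122 FPKM, against 17.3 FPKM at 0 h) but at 12 h in U87 (142 FPKM, against 47.6 FPKM at 0 h). The median change of the 10 tested genes at 48 h was 0.57 in DBTRG-05MG and 0.25 in U87. NLRP3, the inflammasome sensor that TXNIP binds, was at 0.95 FPKM or less.

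ITCH, the ligase that ubiquitinates TXNIP itself, stayed between 10.2 and 15.3 FPKM. Of the 10 tested ligases and adaptors, 1 was at least 2-fold higher and 1 lower at 48 h in DBTRG-05MG: NDFIP1, an activating adaptor of these ligases (1.03, with 0.62 in U87), and the ligase SMURF2 (-1.02). In U87 0 were higher and 2 lower, SMURF2 (-1.47) and NEDD4 (-1.06). The shares of all tested genes at least 2-fold higher and lower at 48 h were 4.57% and 5.16% in DBTRG-05MG. In U87 these shares were 2.14% and 4.32%. WWP2, another ligase of the family, differed from 0 h by -0.20 in DBTRG-05MG and -0.36 in U87. Of the other arrestins, ARRDC1 was at 23.9 FPKM at 6 h, against 30.5 FPKM at 0 h, in DBTRG-05MG and at 13.5 FPKM at 6 h, against 20.0 FPKM at 0 h, in U87. ARRDC2 differed from 0 h by 0.49 in DBTRG-05MG and 0.80 in U87 at 12 h. At 48 h the change of ARRDC1 was 0.04 in DBTRG-05MG and 0.17 in U87, and that of ARRDC2 was 0.56 and -0.27. ARRB2, a beta-arrestin, differed from 0 h by -1.18 at 48 h in DBTRG-05MG and -0.35 in U87. At 24 h in U87 its change was 0.43. Of the reported ARRDC3 cargo, ITGB4 was at 27.9 to 31.3 FPKM in DBTRG-05MG and at most 0.47 FPKM in U87, and ADRB1 and ADRB3 were at most at 0.08 FPKM.

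In the MYC, MAX and MLX network, whose members compete for E boxes, MXD3 had 48 h changes of -2.21 in DBTRG-05MG and -0.81 in U87. MYC, which opposes MondoA at shared targets, differed from 0 h by -1.14 in DBTRG-05MG and -0.14 in U87. MXI1, a MYC antagonist, was at 0.59 in DBTRG-05MG and 0.65 in U87, and MXD4 at -0.09 in DBTRG-05MG and 0.65 in U87. Among reported regulators of TXNIP transcription, EZH2, a repressive histone methyltransferase, was at 14.8 FPKM at 48 h, against 35.5 FPKM at 0 h, in DBTRG-05MG and at 8.74 FPKM at 48 h, against 25.6 FPKM at 0 h, in U87. The division gene MKI67 was lower at the same time, at 10.3 FPKM at 48 h, against 79.9 FPKM at 0 h, in DBTRG-05MG and at 12.3 FPKM at 48 h, against 53.7 FPKM at 0 h, in U87; its part in the EZH2 values was not tested. The NF-Y subunit genes NFYA, NFYB and NFYC differed from 0 h by -0.05, -0.03 and -0.36 at 48 h in DBTRG-05MG and by -0.33, -0.39 and -0.69 in U87. AMPK is the energy sensor whose activity leads to loss of TXNIP protein. Its subunit genes PRKAA1, PRKAB2 and PRKAG1 differed from 0 h by -0.14, 0.36 and 0.52 at 48 h in DBTRG-05MG and by -0.57, 0.29 and 0.02 in U87, and PRKAG2 differed from 0 h by -0.89 in DBTRG-05MG and -0.09 in U87.

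**Figure D4:**
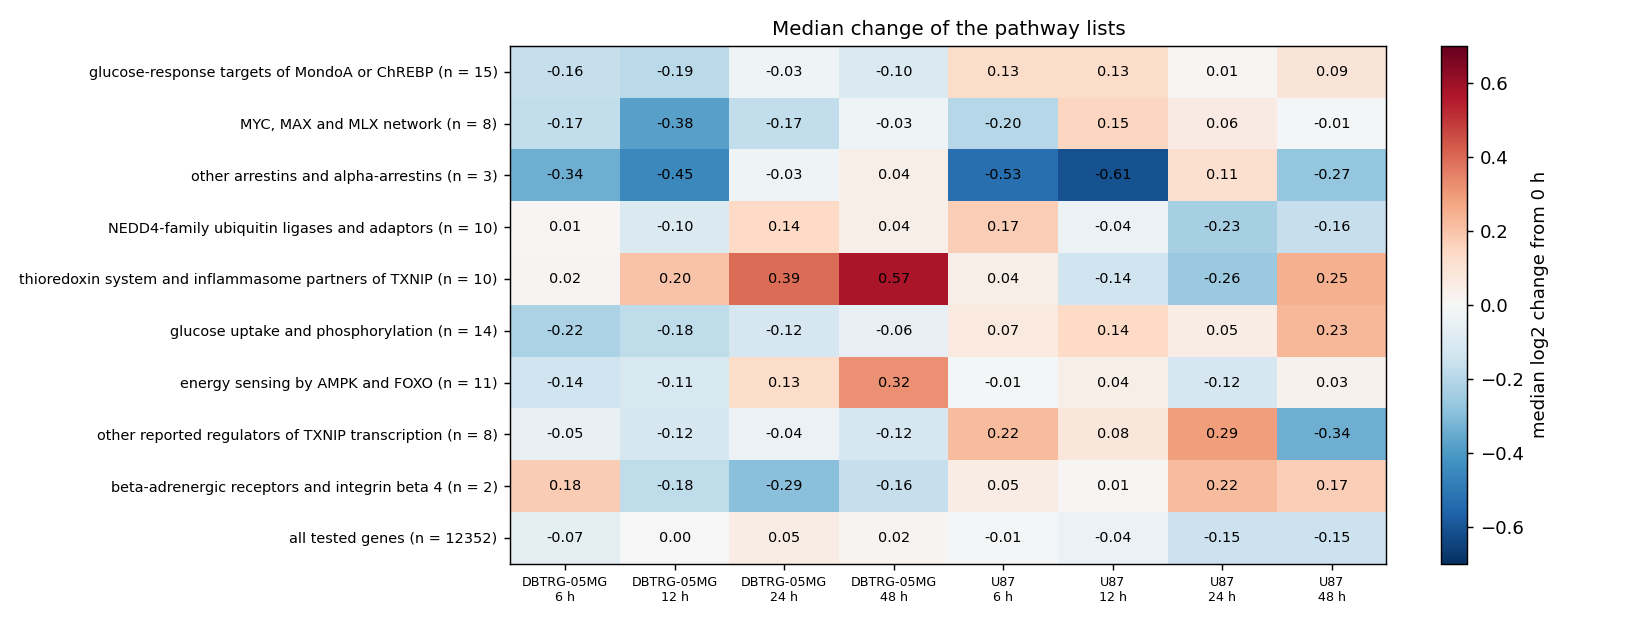
Median log2 change from 0 h of the tested genes of each pathway list (rows, n = genes) in each later library (columns), with all tested genes in the bottom row; colour and number give the same value. The list medians lie between -0.61 and 0.57, and that of the thioredoxin list is 0.57 in DBTRG-05MG and 0.25 in U87 at 48 h.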

How the data were processed

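RNA from DBTRG-05MG and U87 cells was sequenced at 5 times, 1 library each. The authors deposited 1 table of 20379 genes, read here as FPKM from its values, since no label states the unit; the deposited value 0.002 stands for 0. HISAT, Bowtie2, RSEM and the build hg38 are named, per the submitters' processing notes; versions are not given in the sources used here. The members and gene lists were chosen with earlier results of these data known. Reads per member were recovered from the step that 1 read makes in the table. The 12352 genes whose mean reached 1 FPKM were fitted on the log2(FPKM + 1) scale with limma 3.58.1 (R 4.3.3; mean-variance trend, time as a factor, cell line as the block, 4 residual degrees of freedom); the trend test used line by rank of time. The block follows the design, since each line supplied its own series. Adjusted p-values are Benjamini-Hochberg, threshold 0.05. With 1 library per line and time, the time tests set the mean change of both lines against the disagreement between lines. The trend test sets the difference in trend against departures from a straight line within each line. Neither has replicate cultures. The fits were also run on simulated data with normal noise, in which the time test met changes equal in both lines. The outcome is not given here, so it does not show how many real changes the fits missed. Named genes were all members, up to 4 per list with the largest mean 48 h change at a mean of 5 FPKM or more, TXN, ITCH, SLC2A1 and DDIT4, and the 5 genes nearest in course to each arrestin. One of the genes so named is not reported here. Alternatives were the pseudocount, filter, scaling, block, fold and leaving out each library. Python 3.11.15 with pandas 2.3.3 and scipy 1.17.1 served for the rest.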

Additional observations from a re-analysis of the deposited data

Results flagged for a closer look

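The 6 members and 80 tested pathway genes were searched for opposite courses in the lines. In 6 genes the lines lay on opposite sides of their 0 h level at all 4 later times. The members were not among them, and the differences were not tested on their own. The share of all tested genes that meet this rule was not computed, so nothing is read from the count. HKDC1, a hexokinase-like gene, was 0.12 to 1.78 from 0 h in DBTRG-05MG and -1.24 to -0.25 in U87 on the log2 scale, and at 48 h the difference, DBTRG-05MG minus U87, was 2.10. HK2, the inducible hexokinase, was -0.97 to -0.54 in DBTRG-05MG and 0.16 to 0.54 in U87, with a 48 h difference of -1.25. MXD4, a MAX partner that opposes MYC, was -0.69 to -0.09 in DBTRG-05MG and 0.06 to 0.65 in U87, with a 48 h difference of -0.74. The 48 h differences of GPI, ADPGK and KLF10 were -0.47, -0.25 and -0.36.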

How the results depend on the processing

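Of 144 recomputed member changes (pseudocount 0.1, median centring or upper-quartile scaling), 137 stayed within 0.271 log2 of the reported value. In 5 of them the sign changed, always of a change whose size was 0.15 or less. After median centring these were ARRDC3 (0.10) and MLX (0.18) at 48 h in U87, and MLX at 6 h (0.06) and MLXIPL at 24 h (-0.01) in DBTRG-05MG; upper-quartile scaling gave 0.10 for MLX and 0.00 for ARRDC3 at 48 h in U87. The other 7 were all of MLXIPL with a pseudocount of 0.1 and moved by up to 0.92; the largest shift of any other member was 0.25. Members at least 1.5-fold from 0 h numbered 2, 3, 2 and 3 at 6, 12, 24 and 48 h in DBTRG-05MG, and 4 at 24 h and 4 at 48 h in U87. With a pseudocount of 0.1, MLXIPL joined the members at least 2-fold from 0 h. The members then numbered 1 at 12 h in DBTRG-05MG, 3 at 6 h in U87 and 3 at 48 h in U87. The share of all tested genes at these settings was not computed, so nothing is read from these counts. As a mean of both lines, TXNIP differed from 0 h by -1.92 at 6 h (-2.94 to -0.89 with 1 line left out) and 1.38 at 48 h (0.40 to 2.35). For ARRDC3 the range was 0.34 to 2.04 at 6 h and -0.15 to 0.96 at 48 h, where the sign depends on the line kept.

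The count of pathway genes called at 6, 12, 24 and 48 h was 0 under every alternative listed here. Calls over all genes were few and moved with most choices, except a filter at 5 FPKM and a fit without the mean-variance trend. With a pseudocount of 0.1 they numbered 3, 3 and 2 at 6, 12 and 24 h, and without a filter 0, 3 and 2. Median centring left 0 at each of these times, and so did the fit with no replicate block. With 1 library left out they ran from 0 to 2 at 6 h, 0 to 3 at 12 h, 0 to 3 at 24 h and 0 to 2 at 48 h. The 6 h count was 0 without DBTRG-05MG at 12 h or U87 at 0, 6 or 12 h, and the 12 h count was 0 without DBTRG-05MG at 12 h or U87 at 0 or 12 h. The 24 h count was 0 without DBTRG-05MG at 0, 12 or 48 h or U87 at these times, and 3 without DBTRG-05MG at 24 h. Leaving out the 24 h library of either line gave 3 calls at 12 h and 2 at 48 h; leaving out DBTRG-05MG at 0 or 48 h or U87 at 48 h gave 2 calls at 6 h and 2 at 12 h. Differing trends numbered 1 with a pseudocount of 0.1, 5 without a filter, 7 after median centring, 14 with time in hours, and 1 to 67 with 1 library left out: 67 without U87 at 0 h, 12 without DBTRG-05MG at 0 h, 11 without U87 at 48 h, 5 without DBTRG-05MG at 6 h, and 1 without DBTRG-05MG at 48 h or U87 at 6 or 24 h. The cause was not tested. With 1 library per line and time, the TXNIP level of 1148 FPKM in U87 at 48 h rests on a single library.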
